A study of Homo sapiens with 4 samples.

Results

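The genes of the NRF2, glutathione and redox system were examined in ovarian cancer stem cells (OCSCs) treated with an agonist of estrogen receptor beta (ERβ). They were 44 genes chosen by symbol, and all of them were found among the 23228 gene symbols counted. The OCSCs came from SKOV3, an established human ovarian cancer cell line, by sorting for aldehyde dehydrogenase activity with the ALDEFLUOR kit. Cells of both groups were grown as spheroids in DMEM-F12 with B27, EGF, bFGF, hydrocortisone and insulin. The Vehicle group (2 samples) received vehicle and the LY500307 group (2 samples) received 5 µM of the ERβ agonist LY500307, in both cases for 24 h. The sorted cells of a single line make up the whole design, so the results describe that line alone. The labels do not say whether the replicates were separate cultures, and p-values therefore measure only the spread between these samples, which may be technical.

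NRF2, encoded by NFE2L2, is the transcription factor that turns on antioxidant and detoxifying genes, and KEAP1 is the sensor that marks it for degradation while the cell is not under oxidative stress. NRF2 binds, together with a small MAF protein, to antioxidant response elements (AREs) near its target genes. Those targets supply both of the thiol systems that remove peroxides, glutathione with its peroxidases and transferases, and thioredoxin with its reductases and peroxiredoxins, as well as the NADPH that recharges them. Ferritin stores iron in a form that cannot react with peroxide, and FSP1, encoded by AIFM2, reduces coenzyme Q in membranes, which limits lipid peroxidation.

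Between 28841701 and 34943882 reads per sample were counted on genes, and the 44 genes took from 0.523% to 0.608% of them. Reads that aligned to several places, from 32.3% to 33.4% of all tallied reads, were not counted, which bears on genes with near-identical copies such as FTH1, FTL, PRDX1, TXN, SOD1 and the GSTM genes. The LY500307 replicates were farther apart than the Vehicle replicates, with a chi-square per degree of freedom across genes of 42.5 against 5.16. Marker genes went partly against the label of the line. EPCAM, an epithelial surface protein, lay between 194 and 240 CPM (reads of a gene over the reads counted on genes, scaled with edgeR's TMM factors). KRT18 lay between 23.5 and 31.8 CPM and was higher in both treated samples (log2 fold change 0.30). But PAX8 had no read and CDH1, KRT7, KRT19, WT1 and MUC16 had at most 6 reads in any sample. KRT8 had 9 to 33 reads. ERBB2, which is known to be amplified in SKOV3, lay between 48.7 and 59.4 CPM, while PDGFRA, a fibroblast marker, lay between 1401 and 1436 CPM. The summed fibroblast list (5 of 5 genes read) ranged from 1877 to 1898 CPM in Vehicle and from 1945 to 2086 CPM in LY500307. Within that list COL1A1 and COL1A2 were higher in both treated samples (log2 fold changes 0.28 and 0.44), DCN and LUM were lower in both (-0.20 and -0.10) and PDGFRA was at -0.00. The part of these markers in the differences described here was not tested. The summed leukocyte list (5 genes) ranged from 11.9 to 18.3 CPM, nearly all of it CD68, and its defining marker PTPRC had at most 4 reads in any sample. The summed endothelial list (4 genes) ranged from 133 to 151 CPM, nearly all of it KDR, while PECAM1 and CDH5 had at most 4 reads in any sample. ESR1 had no read, and ESR2, the gene of ERβ, had 7 and 8 reads in Vehicle and 12 and 7 reads in LY500307.

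To determine which redox genes changed with LY500307, all genes were tested together with edgeR's quasi-likelihood test, and 42 of the 44 passed its filter on low counts. A gene was called when its unadjusted p was below 0.05 and its absolute log2 fold change was above 0.5, the criteria of the study. HMOX1, GPX1 and TXNRD2 rose under these criteria, and 0 of the 42 fell. These 3 genes are 7.14% of the 42, beside 4.62% of the 14473 genes tested that were called in either direction, 2.76% called higher and 1.86% called lower. Without the limit on fold, KEAP1, SRXN1, GSTK1 and FTL also passed, which made 7 genes higher and 0 lower, beside 6.09% of all genes higher and 5.5% lower. After Benjamini-Hochberg adjustment over all genes tested, edgeR called 0 of the 42 and DESeq2 also called 0. At an unadjusted p below 0.05 there were 7 and 9 genes, beside 11.6% of all genes in edgeR and 7.69% in DESeq2. The smallest adjusted p among the 42 in edgeR was 0.422, so no call survived adjustment. In these bulk samples, a change in the mixture of cells and a change in RNA per cell cannot be told apart.

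The direction of the tested genes was mixed. Among those not called, the largest log2 fold changes were 0.50 for AIFM2, 0.48 for GSTO1 and 0.43 for PRDX3. Of the 42 genes, 27 had a positive and 15 a negative log2 fold change, from -0.22 for TXN to 0.71 for TXNRD2, and 11 of the 42 changed sign under another scaling, correction or block. Over all genes, 7233 of the 14473 tested had a positive value. The median log2 fold change of the 42 was 0.07, and that of all genes tested was 0.00 to 2 decimals. Both LY500307 samples lay above both Vehicle samples for 12 of the 42 genes, beside 24.2% of all genes, and below for 3 genes (GCLM, TXN and TXNRD1), beside 24.4% of all genes. In the other 27 genes the groups overlapped. The calls depended on LY500307 replicate 2. Without that sample the log2 fold changes were 0.39 for HMOX1, 0.40 for TXNRD2 and 0.28 for GPX1, all below the fold criterion. Without LY500307 replicate 1 they were 0.85, 0.97 and 0.76. Without Vehicle replicate 1 they were 0.65, 0.70 and 0.51, and without Vehicle replicate 2 they were 0.62, 0.73 and 0.57. A group left with 1 sample has no spread of its own, so counts of genes passing in these fits are not read here.

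**Figure D1:**
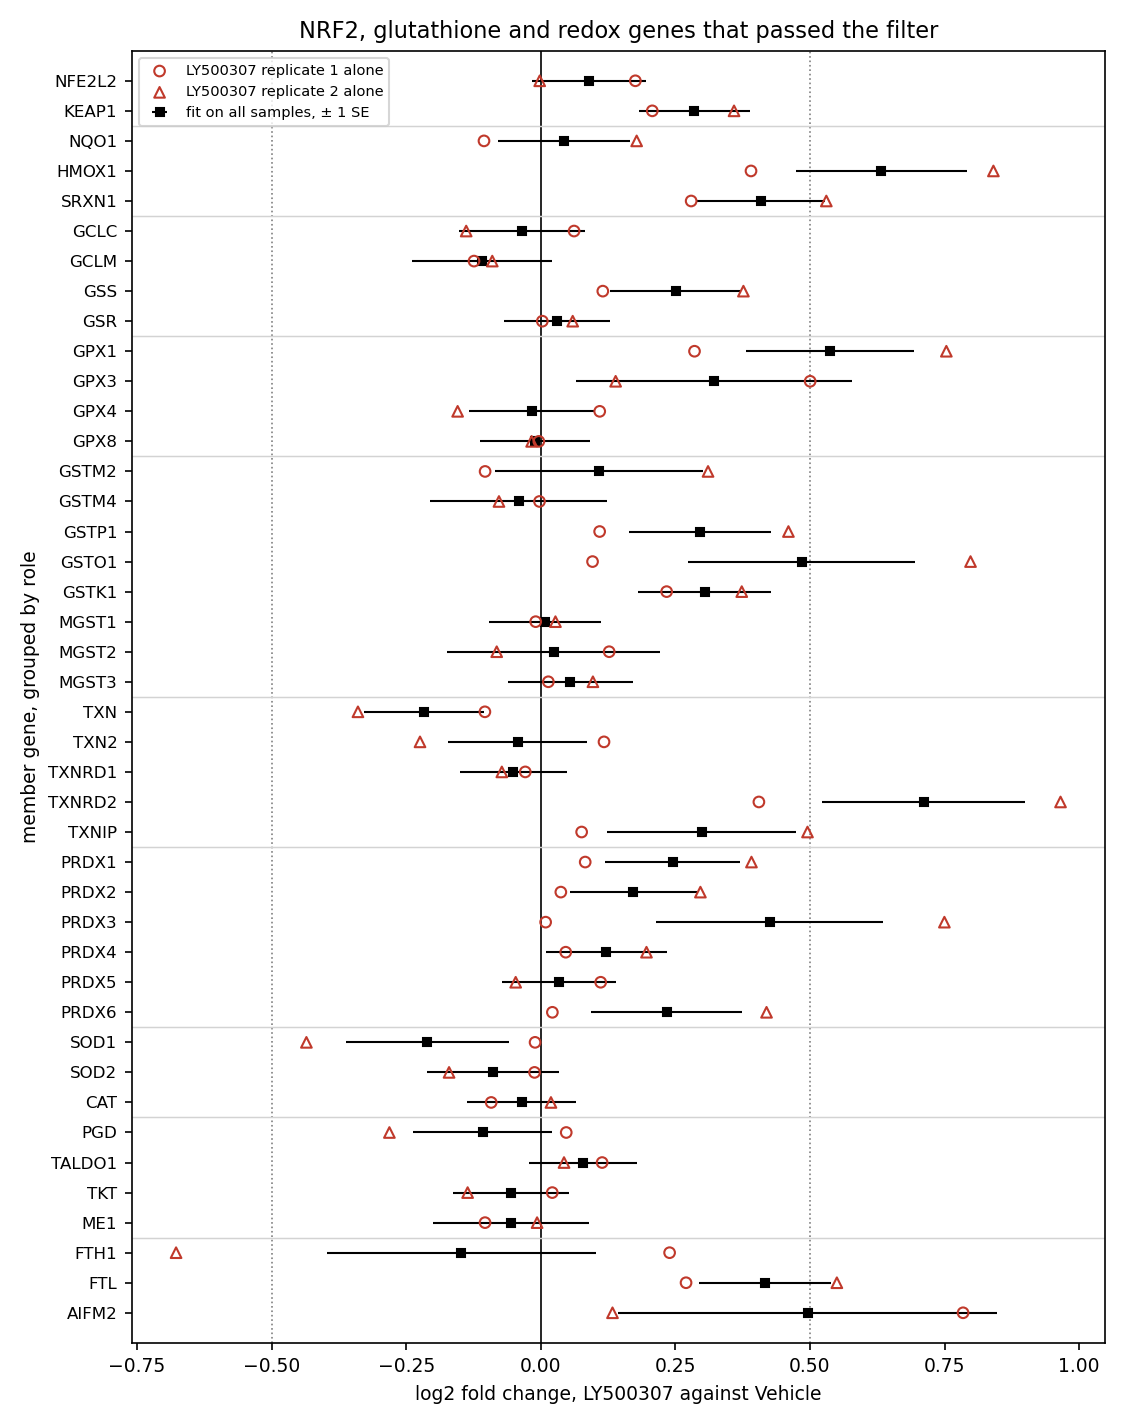
The log2 fold change (x axis, LY500307 against Vehicle) of the 42 tested genes, each on a line of its own (y axis), grouped by role: black squares are the fitted values with 1 standard error, open red circles and triangles are LY500307 replicates 1 and 2 alone against both Vehicle samples, and dotted lines mark the fold criterion of the study. HMOX1, GPX1 and TXNRD2 lie to the right of the upper dotted line with replicate 2 farther out than replicate 1, while the replicates of FTH1 lie on opposite sides of 0.

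Of the sensor and the factor itself, KEAP1 was higher and NFE2L2 overlapped between the groups. KEAP1 (chr19:10596801-10614234, minus strand, hg19) was at 87.9 and 84.8 CPM in Vehicle and at 99.6 and 111 CPM in LY500307. Both treated samples were above both controls, and its log2 fold change was 0.28 with a standard error of 0.10 (edgeR, unadjusted p = 0.0248, adjusted p = 0.422). With the correction for GC content the log2 fold change was 0.15 and the unadjusted p in edgeR was 0.146. Without Vehicle replicate 1 the unadjusted p in edgeR was 0.158, and without Vehicle replicate 2 it was 0.233. NFE2L2 (chr2:178083395-178257484, minus strand, hg19) was at 87.5 and 88.2 CPM in Vehicle and at 99.2 and 87.7 CPM in LY500307. The second treated sample lay within the range of the controls, and the log2 fold change was 0.09 with a standard error of 0.11. Exons of HNRNPA3 on the opposite strand cover 23.4% of the exonic bases of NFE2L2, and reads of the 2 genes cannot be told apart where the counting did not use strand.

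Of the 3 genes grouped here as classical target enzymes of NRF2, HMOX1 and SRXN1 were higher and NQO1 was not distinguishable from its controls. Among 21 other NRF2 target genes tested outside the list, 0 were called, beside 4.62% of all genes tested. Their log2 fold changes were positive for 16 and negative for 5, beside 7233 positive of the 14473 genes tested. Their median was 0.05 for LY500307 replicate 1 alone and 0.16 for replicate 2 alone. HMOX1 (chr22:35776354-35790207, plus strand, hg19) encodes heme oxygenase 1, which breaks heme down to biliverdin, iron and carbon monoxide. Its level was 34.7 and 33.9 CPM in Vehicle and 44.9 and 61.4 CPM in LY500307, with no overlap. The mean rose from 34.3 ± 0.578 CPM to 53.2 ± 11.6 CPM (SD, n = 2 each), a 1.55-fold difference. The log2 fold change was 0.63 with a standard error of 0.16 (edgeR, unadjusted p = 0.0041, adjusted p = 0.422, and adjusted p = 0.0812 in DESeq2). The change was larger in the second treated sample: the log2 fold change was 0.39 for LY500307 replicate 1 alone and 0.84 for replicate 2 alone, each against both Vehicle samples. SRXN1 (chr20:627259-633844, minus strand, hg19) encodes sulfiredoxin, which repairs overoxidized peroxiredoxins. It was at 73.6 and 68.0 CPM in Vehicle and at 85.9 and 102 CPM in LY500307. The groups did not overlap, and the log2 fold change of 0.41 with a standard error of 0.12 (edgeR, unadjusted p = 0.00911, adjusted p = 0.422) was below the fold criterion. Without Vehicle replicate 2 its unadjusted p in edgeR was 0.118. The annotation places another coding gene on the same strand over 90.7% of the exonic bases of SRXN1. NQO1 (chr16:69740899-69760571, minus strand, hg19) encodes a quinone reductase that is widely read as a marker of NRF2 activity. It was at 275 and 262 CPM in Vehicle and at 250 and 304 CPM in LY500307. The controls lay between the treated samples, and the log2 fold change was 0.04 with a standard error of 0.12 (edgeR, unadjusted p = 0.735).

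**Figure D2:**
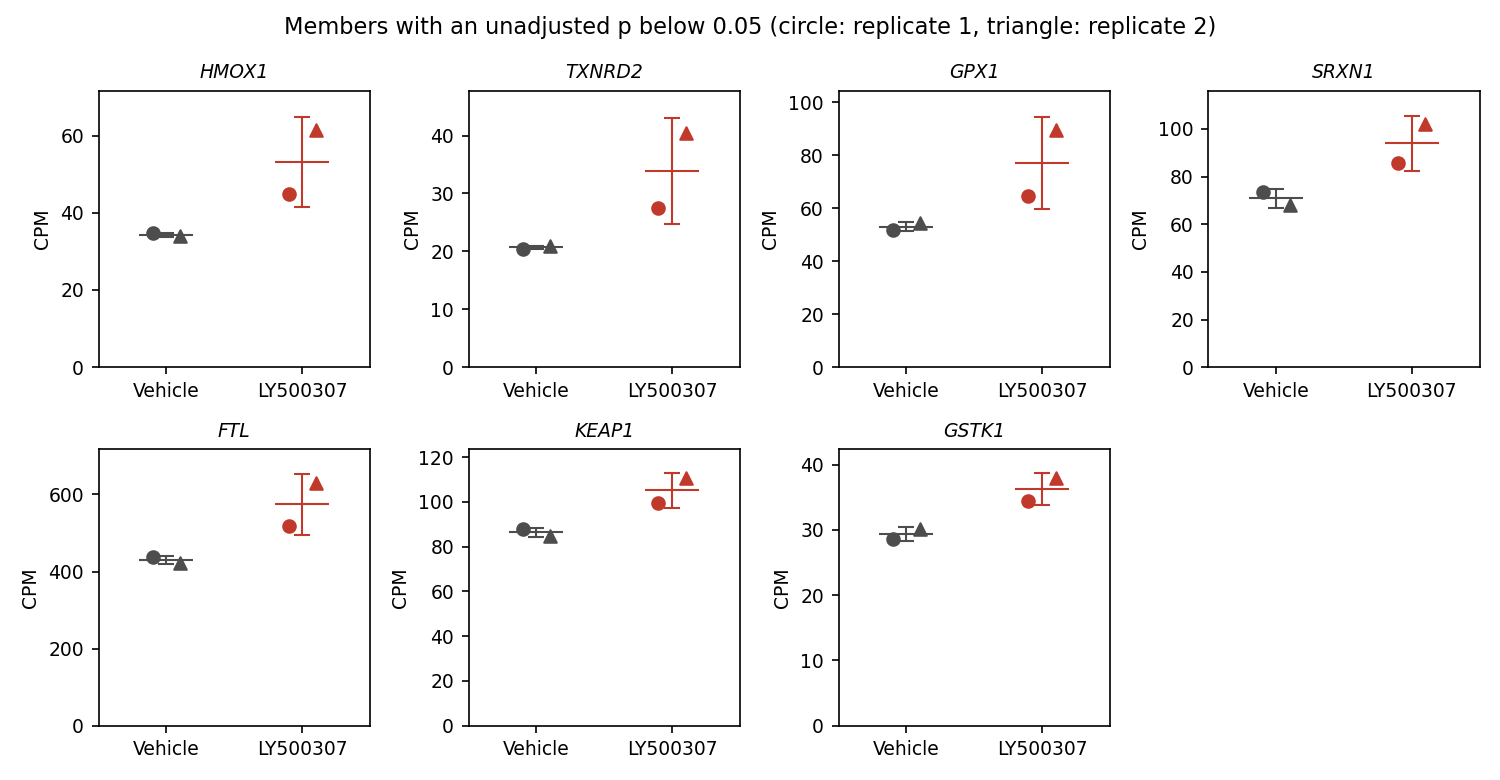
Expression in CPM (y axis, from 0) of the 7 genes with an unadjusted p below 0.05 in Vehicle and LY500307 (x axis), with circles for replicate 1, triangles for replicate 2 and bars for the mean ± SD (n = 2). In all 7 panels both treated samples lie above both controls and the triangle of LY500307 is the highest point.

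The start regions of called genes were read for the core of the ARE, the letters TGACNNNGC on either strand, which NRF2 is known to bind. RefSeq start windows (GRCh38.p14, 250 bases before and 50 after the start) were held for 35 of the 44 genes, and the table used here has none for HMOX1. An ARE core was in the window of 10 of the 35 genes (28.6%), namely AIFM2, GCLM, GPX2, GSTO1, GSTP1, KEAP1, ME1, MGST1, PGD and TXNRD1, beside 16.1% of the 27305 genes with a window. None of these 10, of which GPX2 was not tested, met the criteria for a call. The runs printed here are the 250 bases before the start of GPX1 (chr3:49358354-49358603) and of TXNRD2 (chr22:19941819-19942068), which were called and hold no core in these letters. For comparison, KEAP1 (chr19:10502772-10503021, one of its 2 windows), which holds 2 cores, and GCLM (chr1:93909431-93909680), which holds 1, are added, both picked with their values known. All 4 lie on the minus strand of GRCh38.p14 and are written 5′ to 3′ along the gene, with ARE cores in capitals.
GPX1: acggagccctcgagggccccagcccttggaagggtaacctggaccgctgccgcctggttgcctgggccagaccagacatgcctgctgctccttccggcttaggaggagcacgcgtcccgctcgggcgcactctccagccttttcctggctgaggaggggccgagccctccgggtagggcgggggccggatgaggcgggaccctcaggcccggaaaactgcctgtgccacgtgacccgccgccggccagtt
TXNRD2: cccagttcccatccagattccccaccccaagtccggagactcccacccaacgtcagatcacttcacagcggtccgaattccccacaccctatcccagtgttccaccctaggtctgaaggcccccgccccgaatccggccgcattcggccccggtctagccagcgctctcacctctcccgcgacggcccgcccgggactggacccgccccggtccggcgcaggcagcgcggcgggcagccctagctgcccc
KEAP1: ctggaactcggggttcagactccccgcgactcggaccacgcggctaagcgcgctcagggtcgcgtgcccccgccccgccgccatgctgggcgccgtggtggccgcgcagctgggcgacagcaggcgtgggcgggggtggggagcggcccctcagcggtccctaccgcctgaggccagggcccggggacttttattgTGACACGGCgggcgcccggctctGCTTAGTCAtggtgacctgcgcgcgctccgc
GCLM: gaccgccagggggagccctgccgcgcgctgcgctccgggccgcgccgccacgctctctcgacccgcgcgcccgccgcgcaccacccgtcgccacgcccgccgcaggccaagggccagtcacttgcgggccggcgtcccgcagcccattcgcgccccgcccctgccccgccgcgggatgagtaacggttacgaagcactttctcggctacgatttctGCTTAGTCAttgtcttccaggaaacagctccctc
In the KEAP1 run the first core reads along the gene from position -54, and the second lies on the opposite strand from position -31, counted from the start. The single core of GCLM lies on the opposite strand from position -34. The E-box CACGTG, which reads the same on both strands, was in the windows of GPX1, PRDX3 and PRDX4 (8.57% of the 35 genes, beside 8.77% of all genes). The full palindromic estrogen response element was in the window of 0 of the 35 genes and of 20 of the 27305. A match is a description of letters near a start, and no binding was measured here. Bases outside the windows were not read, so a window without a core does not mean a gene without an ARE.

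None of the 4 enzymes that make and recycle glutathione passed the test. GCLC and GCLM encode the catalytic and the modifier subunit of glutamate-cysteine ligase, the rate-limiting step of glutathione synthesis. GCLC was at 55.4 and 53.3 CPM in Vehicle and at 56.7 and 49.4 CPM in LY500307, so that the treated samples lay on both sides of the controls. GCLM was at 25.4 and 23.3 CPM in Vehicle and at 22.3 and 22.8 CPM in LY500307. Both treated samples of GCLM were below both controls, but its log2 fold change of -0.11 was smaller than its standard error of 0.13. GSS, which adds glycine to complete glutathione, was at 61.5 and 66.4 CPM in Vehicle and at 69.2 and 82.9 CPM in LY500307, without overlap (log2 fold change 0.25, edgeR, unadjusted p = 0.075). GSR, the reductase that regenerates glutathione from its disulfide, had a log2 fold change of 0.03 with a standard error of 0.10. Of the 4 genes, 0 passed the test, beside 11.6% of all genes tested. The smallest unadjusted p was 0.075 in edgeR and the smallest adjusted p was 0.444.

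One of the glutathione peroxidases rose. GPX1 (chr3:49394607-49396038, minus strand, hg19) encodes the main cytosolic glutathione peroxidase, a selenoenzyme that reduces hydrogen peroxide. It was at 51.9 and 54.2 CPM in Vehicle and at 64.6 and 89.4 CPM in LY500307. The groups did not overlap, and the mean went from 53.0 ± 1.68 CPM to 77.0 ± 17.5 CPM (SD, n = 2 each), 1.45-fold higher. The log2 fold change was 0.54 with a standard error of 0.16 (edgeR, unadjusted p = 0.00898, adjusted p = 0.422), and it was 0.29 for LY500307 replicate 1 and 0.75 for replicate 2 alone. This call was lost with the corrections for GC content (log2 fold change 0.39) and for exonic length (0.40), and the annotation has another coding gene on the same strand over 39.9% of the exonic bases of GPX1. GPX4, the peroxidase that reduces lipid peroxides in membranes and protects against ferroptosis, was at 176 and 183 CPM in Vehicle and at 193 and 161 CPM in LY500307. Its treated samples lay on both sides of the controls, and the log2 fold change was -0.02 with a standard error of 0.12. GPX8, a peroxidase of the endoplasmic reticulum, spanned only 59.1 to 60.3 CPM over the 4 samples. GPX3, a secreted peroxidase, was low, from 2.92 to 4.61 CPM, and its groups overlapped. GPX2 had 4 and 0 reads in Vehicle and 3 and 0 reads in LY500307 and was not tested.

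The glutathione S-transferases couple glutathione to reactive compounds. Of the 8 that were tested, 1 passed the test, beside 11.6% of all genes tested. GSTK1 (chr7:142941186-142967947, plus strand, hg19), the transferase of mitochondria and peroxisomes, was at 28.6 and 30.1 CPM in Vehicle and at 34.5 and 38.0 CPM in LY500307. The groups did not overlap, and the log2 fold change was 0.30 with a standard error of 0.12 (edgeR, unadjusted p = 0.0392, adjusted p = 0.428). In DESeq2 its unadjusted p was 0.0632, and with the correction for GC content it was 0.0635, so that its side of the threshold depended on the test. Without LY500307 replicate 2 its log2 fold change was 0.23, and it was 0.27 without Vehicle replicate 1 and 0.34 without Vehicle replicate 2. GSTP1, the most highly counted transferase of the list, was at 238 and 245 CPM in Vehicle and at 261 and 332 CPM in LY500307, with no overlap (log2 fold change 0.30, edgeR, unadjusted p = 0.056). GSTO1 was at 59.7 and 51.0 CPM in Vehicle and at 59.0 and 95.9 CPM in LY500307. The first treated sample of GSTO1 lay between the controls and the second far above them, which gave log2 fold changes of 0.10 and 0.80 for the single replicates. The other 5 that were tested (GSTM2, GSTM4, MGST1, MGST2 and MGST3) had log2 fold changes between -0.04 and 0.11, and the groups of all 5 overlapped. GSTM3 had 0 reads in all samples, which allows a level of up to 0.0864 to 0.106 CPM per library (3 reads, counting error only). Reads shared with near-identical transferase genes were not counted, so this limit holds for uniquely aligned reads.

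The thioredoxin system runs in the cytosol through TXN and its reductase TXNRD1 and in mitochondria through TXN2 and TXNRD2. The mitochondrial reductase rose, and neither the cytosolic reductase nor either thioredoxin passed the test. TXNRD2 (chr22:19863040-19929343, minus strand, hg19) was at 20.5 and 20.9 CPM in Vehicle and at 27.4 and 40.4 CPM in LY500307. Both treated samples were above both controls, with means of 20.7 ± 0.292 CPM and 33.9 ± 9.19 CPM (SD, n = 2 each). The log2 fold change was 0.71 with a standard error of 0.19, or 1.64-fold (edgeR, unadjusted p = 0.00552, adjusted p = 0.422, and adjusted p = 0.0843 in DESeq2), with 0.41 for LY500307 replicate 1 and 0.97 for replicate 2 alone. TXNRD1 was at 330 and 318 CPM in Vehicle and at 318 and 308 CPM in LY500307, with a log2 fold change of -0.05 and a standard error of 0.10. The higher treated sample of TXNRD1 lay just below the lower control, at 317.6 against 317.8 CPM. TXNRD2 reads were 6.20% and 6.58% of TXNRD1 reads in Vehicle and 8.63% and 13.1% in LY500307. TXN was at 131 and 130 CPM in Vehicle and at 121 and 103 CPM in LY500307. Both treated samples of TXN were below both controls (log2 fold change -0.22, standard error 0.11, edgeR, unadjusted p = 0.0864), and the unadjusted p was 0.0313 with the correction for exonic length. TXN2 was at 89.1 and 90.0 CPM in Vehicle and at 97.2 and 76.7 CPM in LY500307, with the treated samples on both sides of the controls. TXNIP, the inhibitor of thioredoxin, was at 16.3 and 15.1 CPM in Vehicle and at 16.5 and 22.1 CPM in LY500307. The groups of TXNIP did not overlap, but its first treated sample was within 1 CPM of a control and its log2 fold change of 0.30 had a standard error of 0.18.

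The peroxiredoxins reduce peroxides with electrons from thioredoxin. All 6 had positive log2 fold changes, beside 7233 of the 14473 genes tested. That of PRDX5 turned negative with the corrections for GC content and exonic length. Their median was 0.04 for LY500307 replicate 1 alone and 0.34 for replicate 2 alone. Of the 6, 0 passed the test, beside 11.6% of all genes tested (smallest unadjusted p in edgeR 0.0788, smallest adjusted p 0.445). PRDX3 (chr10:120927232-120938324, minus strand, hg19), the mitochondrial peroxiredoxin, was at 209 and 196 CPM in Vehicle and at 204 and 340 CPM in LY500307. The first treated sample lay between the controls and the second lay above all others, which gave log2 fold changes of 0.01 and 0.75 for the single replicates and 0.43 with a standard error of 0.21 for both. PRDX1, the main cytosolic peroxiredoxin, was at 292 and 286 CPM in Vehicle and at 306 and 379 CPM in LY500307, without overlap. Exons of MMACHC on the opposite strand cover 29.8% of its exonic bases. PRDX6, which uses glutathione in place of thioredoxin, was at 273 and 263 CPM in Vehicle and at 272 and 358 CPM in LY500307. Here too the first treated sample lay between the controls. PRDX2, PRDX4 and PRDX5 had log2 fold changes of 0.17, 0.12 and 0.03, and their groups overlapped. Summed over the 6 genes, the level was 1193 and 1192 CPM in Vehicle and 1236 and 1560 CPM in LY500307. Within the second treated sample the peroxiredoxins stood high against the thioredoxins they draw on, with 4.44 PRDX3 reads per TXN2 read against 2.10 to 2.35 in the other samples, and 3.68 PRDX1 reads per TXN read against 2.20 to 2.52.

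**Figure D3:**
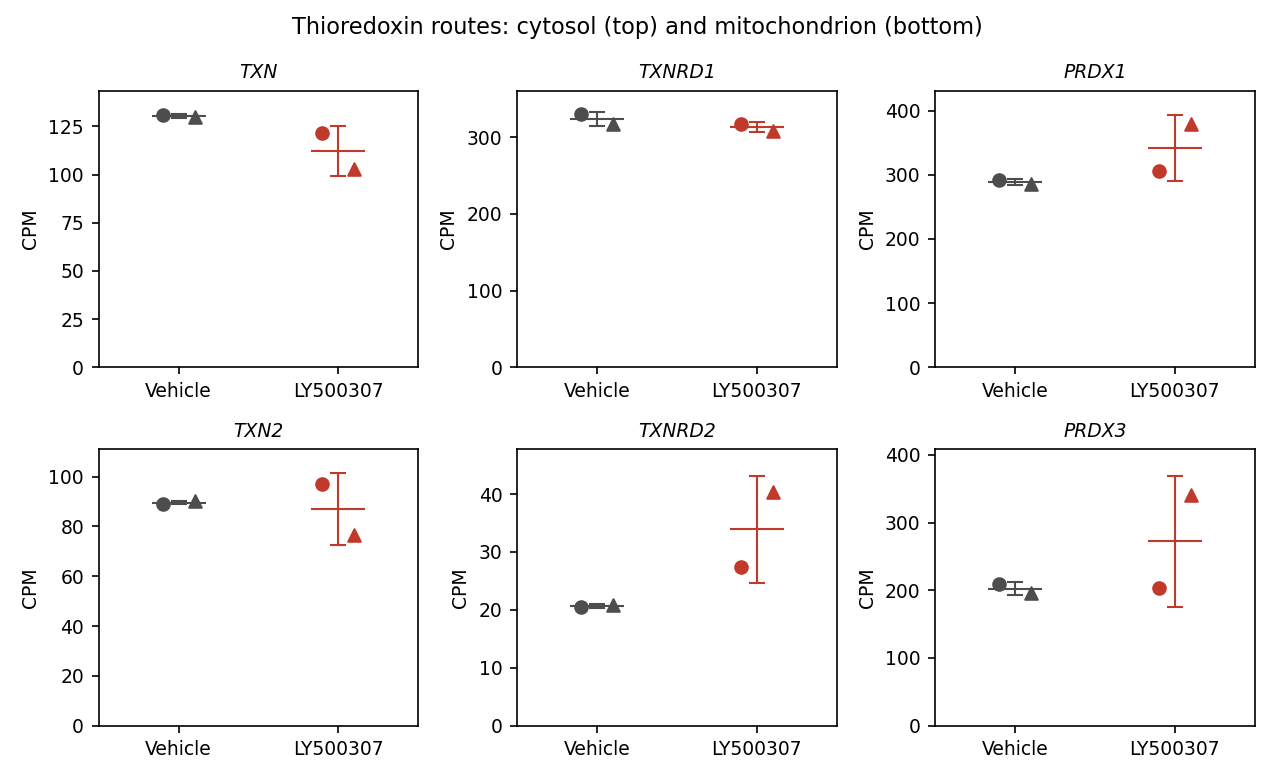
Expression in CPM (y axis, from 0) of thioredoxin, thioredoxin reductase and peroxiredoxin of the cytosol (top row: TXN, TXNRD1, PRDX1) and of mitochondria (bottom row: TXN2, TXNRD2, PRDX3) in Vehicle and LY500307, with circles for replicate 1, triangles for replicate 2 and bars for the mean ± SD (n = 2). Both treated samples of TXNRD2 lie above the controls, while PRDX3 is high in LY500307 replicate 2 alone.

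The enzymes that handle superoxide and hydrogen peroxide directly had negative log2 fold changes, although that of CAT turned positive with library totals or the GC correction. Of these 3 genes, 0 passed the test, beside 11.6% of all genes tested (smallest unadjusted p in edgeR 0.202). SOD1, the cytosolic superoxide dismutase, was at 190 and 217 CPM in Vehicle and at 202 and 150 CPM in LY500307. Its first treated sample lay between the controls and its second below them, so that the groups overlapped (log2 fold change -0.21, standard error 0.15). SOD2, the mitochondrial dismutase, had a log2 fold change of -0.09, and CAT, which splits hydrogen peroxide in peroxisomes, one of -0.04. PGD, TALDO1, TKT and ME1 supply NADPH through the pentose phosphate pathway and malic enzyme. Of these, 0 of 4 passed the test in edgeR (smallest unadjusted p 0.428), beside 11.6% of all genes tested. Their log2 fold changes ran from -0.11 for PGD to 0.08 for TALDO1, and their groups overlapped. PGD and TKT were at 269 and 425 CPM in LY500307 replicate 2, below the 321 to 337 and the 465 to 474 CPM of the other samples.

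Of the ferritin chains, which assemble into the same iron-storing shell, FTL was higher and FTH1 was split between the treated samples. FTL (chr19:49468566-49470136, plus strand, hg19), the light chain, was at 438 and 423 CPM in Vehicle and at 519 and 630 CPM in LY500307. Both treated samples were above both controls, with means of 431 ± 10.1 CPM and 575 ± 78.6 CPM (SD, n = 2 each). The log2 fold change of 0.42 had a standard error of 0.12 (edgeR, unadjusted p = 0.00993, adjusted p = 0.422). With the correction for exonic length the log2 fold change was 0.26 (edgeR, unadjusted p = 0.0291), and with the replicate block added it was also 0.26 (edgeR, unadjusted p = 0.109). Without LY500307 replicate 2 it was 0.27. Without Vehicle replicate 1 its unadjusted p in edgeR was 0.116, and without Vehicle replicate 2 it was 0.156. FTH1 (chr11:61727190-61735106, minus strand, hg19), the heavy chain with the ferroxidase site, was at 292 and 309 CPM in Vehicle and at 355 and 188 CPM in LY500307. The treated samples lay on opposite sides of the controls, with log2 fold changes of 0.24 and -0.68 for the single replicates, and the pooled value of -0.15 had a standard error of 0.25. Reads of FTH1 per read of FTL were 0.668, 0.730 and 0.684 in the first 3 samples (both Vehicle samples and LY500307 replicate 1) and 0.298 in LY500307 replicate 2. The combined share of both chains in the gene counts of each sample was nearly level within the treated group, at 0.0868% and 0.0846%, against 0.0720% and 0.0722% in Vehicle. Exons of BEST1 on the opposite strand cover 63.2% of the exonic bases of FTH1, and both ferritin genes have processed copies elsewhere in the genome, so their counts are uncertain. AIFM2 was near the lower limit, with 41 and 43 reads in Vehicle and 86 and 51 reads in LY500307, and a log2 fold change of 0.50 with a standard error of 0.35.

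**Figure D4:**
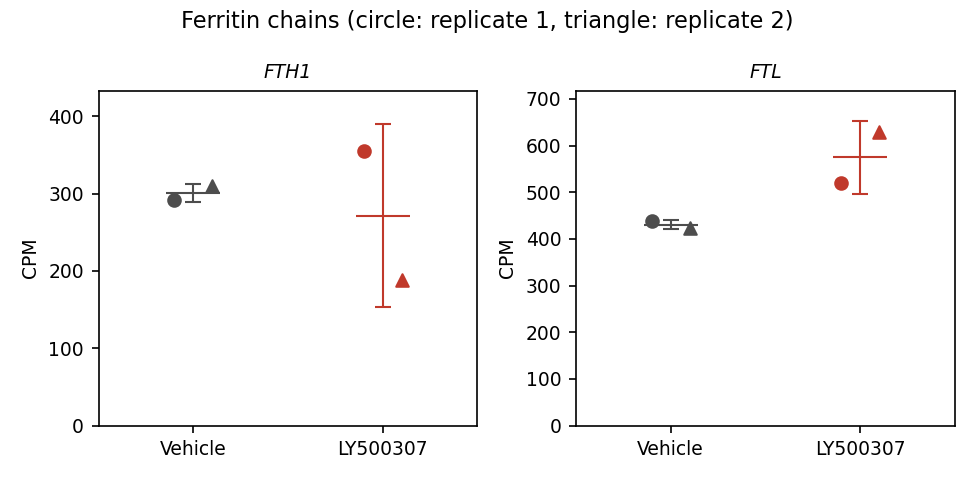
Expression in CPM (y axis, from 0) of the ferritin heavy chain FTH1 and light chain FTL in Vehicle and LY500307, with circles for replicate 1, triangles for replicate 2 and bars for the mean ± SD (n = 2). LY500307 replicate 2 has the lowest FTH1 value (188 CPM) and the highest FTL value (630 CPM) of the 4 samples.

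Levels of different genes were compared per kilobase of exon (RPKM), on group means. The length merged every annotated exon of a gene (8201 bases for TXNRD2). Genes with many annotated transcripts can therefore be placed lower than by the length of 1 transcript. FTL led in both groups at 494 RPKM in Vehicle and 660 RPKM in LY500307, followed by PRDX5 (200 and 205 RPKM) and PRDX1 (172 and 204 RPKM). FTH1 went from the fourth place to the sixth (150 and 135 RPKM), and GSTP1 from the fifth to the fourth (137 and 168 RPKM). The called genes lay lower, with GPX1 in place 18 of 42 in Vehicle and 14 in LY500307 (53.8 RPKM), HMOX1 at 14.9 and 23.1 RPKM and TXNRD2 at 2.52 and 4.13 RPKM. AIFM2 was the lowest of the tested genes at 0.281 and 0.395 RPKM.

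The treated replicates lay farther apart than the controls for most of these genes, as for most genes measured. The median absolute log2 ratio between replicates was 0.07 in Vehicle and 0.26 in LY500307, beside 0.11 and 0.22 over all genes with a value. The LY500307 gap was the wider for 34 of the 42 genes (81.0%), beside 66.7% of all genes. For 33 of the 42 (78.6%), LY500307 replicate 2 lay farther from the Vehicle mean than replicate 1 did, beside 69.7% of all genes with a value. In 13 of the 42 (31.0%) the treated replicates changed in opposite directions, beside 31.5% of all genes. The widest gaps were those of FTH1 (0.92), PRDX3 (0.74), GSTO1 (0.70) and AIFM2 (0.65), and TXNRD2 followed at 0.56.

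Another 94 genes of the pathway were examined with the same criteria, of which 75 were tested. Of these, 3 rose (RBX1, GSTT1 and GSTZ1) and 1 fell (DUOX2), together 5.33% of the 75 beside 4.62% of all genes tested. Their median log2 fold change was 0.10, with 0.03 for LY500307 replicate 1 alone and 0.17 for replicate 2 alone. RBX1, a subunit of the ubiquitin ligase that KEAP1 directs at NRF2, was at 27.7 and 36.9 CPM in Vehicle and at 41.3 and 65.8 CPM in LY500307 (log2 fold change 0.73, standard error 0.23, edgeR, unadjusted p = 0.0129). GSTT1, a transferase, was at 12.7 and 10.5 CPM in Vehicle and at 15.8 and 18.1 CPM in LY500307 (log2 fold change 0.55, edgeR, unadjusted p = 0.0121). GSTZ1, which acts in tyrosine breakdown, was at 13.5 and 12.1 CPM in Vehicle and at 15.4 and 21.2 CPM in LY500307 (log2 fold change 0.52, edgeR, unadjusted p = 0.0254). For these 3 genes both treated samples lay above both controls, as for 24.2% of all genes tested. DUOX2, an oxidase that makes hydrogen peroxide, had 20 and 12 reads in Vehicle and 5 and 5 reads in LY500307. It fell by 1.84 on the log2 scale with a standard error of 0.66 (edgeR, unadjusted p = 0.0235). Both of its treated samples lay below both controls, as for 24.4% of all genes tested. All 4 had an adjusted p of 0.422 in edgeR. With all samples kept, GSTT1 and GSTZ1 lost their calls with the correction for GC content, and DUOX2 was not called in DESeq2 or with either of the other filters on low counts. RBX1 was called in all 10 of these alternatives. MAFF, a partner of NRF2, and GLRX2 gained calls with the GC correction, and QSOX1 with library totals or the length correction. In the fit reported here their log2 fold changes were -0.45 (MAFF), 0.37 (GLRX2) and 0.49 (QSOX1). Calls were also lost without single samples, those of RBX1 and DUOX2 without Vehicle replicate 1, those of GSTT1 and GSTZ1 without Vehicle replicate 2, that of DUOX2 without LY500307 replicate 1 and those of all 4 without LY500307 replicate 2. Without LY500307 replicate 2, 1 of the 75 genes was called (1.33%, beside 2.38% of all genes), and without LY500307 replicate 1, 13 were (17.3%, beside 13.8% of all genes). Named after its values were seen, SLC7A11, the cystine importer that feeds glutathione synthesis, was at 11.4 and 10.2 CPM in Vehicle and at 9.08 and 9.90 CPM in LY500307. It did not pass the test in edgeR (unadjusted p = 0.285).

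Of the 3 called genes, HMOX1 and TXNRD2 kept their calls in all 10 alternative settings that used all samples, with log2 fold changes of 0.52 to 0.68 and of 0.60 to 0.76. Over these alternatives the adjusted p ranged from 0.0639 to 0.515 for HMOX1, from 0.0097 to 0.515 for TXNRD2 and from 0.140 to 0.515 for GPX1. The lowest value for TXNRD2 came from a single alternative, which used the replicate number as a block together with the correction for exonic length. In that alternative 188 of the 14473 genes tested (1.30%) had an adjusted p below 0.05. Without LY500307 replicate 2 the log2 fold changes were 0.39 for HMOX1, 0.40 for TXNRD2 and 0.28 for GPX1, all below the fold criterion. Each of the 3, picked from these same samples, was higher in 2 of 2 treated samples, as were 24.2% of all genes tested. For any one gene, the smallest two-sided p that an exact permutation test allows with 2 against 2 samples is 0.333.

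**Figure D5:**
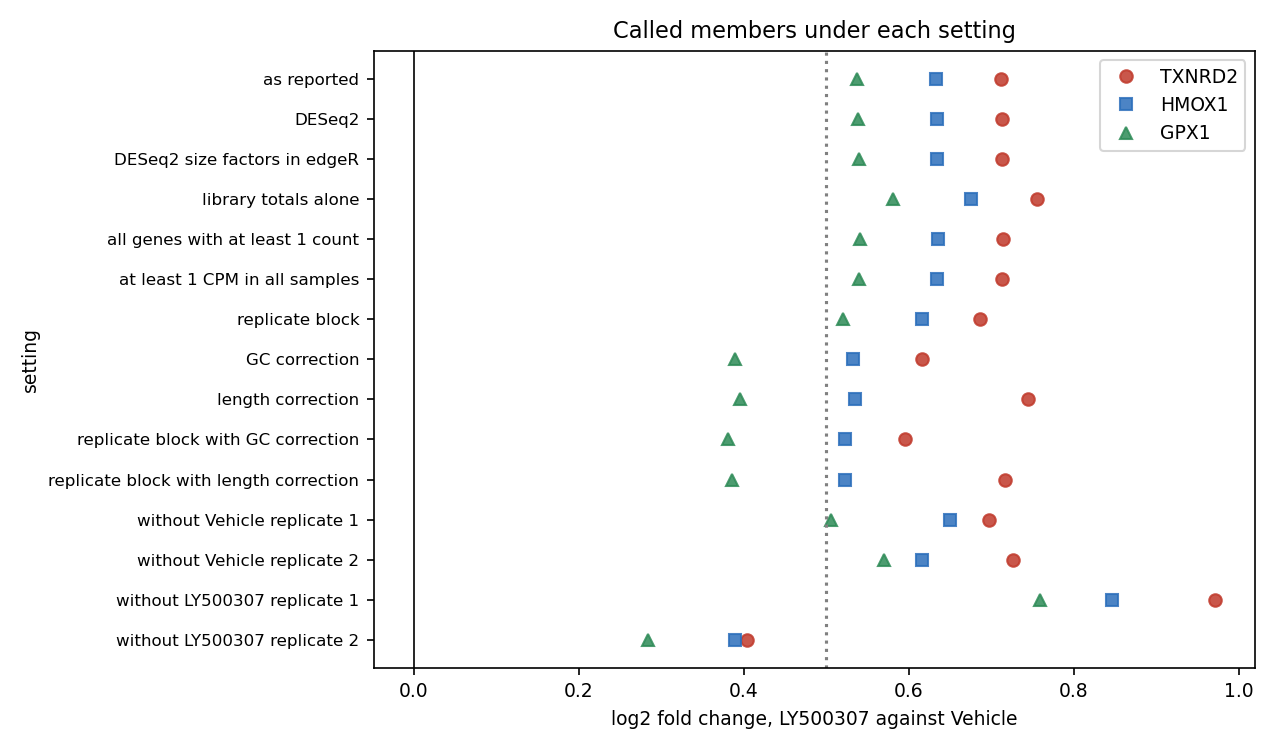
The log2 fold change (x axis, LY500307 against Vehicle) of TXNRD2, HMOX1 and GPX1 under each processing setting (y axis), with a dotted line at the fold criterion of the study. All points lie above 0, those of GPX1 fall below the criterion under the GC and length corrections, and those of all 3 genes do so without LY500307 replicate 2.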

How the data were processed

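RNA-seq of SKOV3-ALDH+ OCSCs (2 Vehicle and 2 LY500307 samples) was analysed from the raw counts per gene that the authors deposited. Per the submitters' processing notes, the tools were bcl2fastq, TopHat2 2.0.8b and HTSeq with hg19. The version of HTSeq, its strand setting and its annotation are not given in the sources used here. The labels describe total RNA libraries read as single ends, and the methods of the study describe stranded mRNA-seq.

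The test was the quasi-likelihood test of edgeR 4.0.16 in R 4.3.3 (TMM, filterByExpr, Benjamini-Hochberg adjustment over all 14473 genes tested), after the tally lines of HTSeq (17.3% to 20.5% of tallied reads on no feature) were removed. A standard error is the absolute log2 fold change divided by the square root of F. Alternatives were DESeq2 1.42.0, its size factors, library totals, other filters on low counts, a replicate block, loess corrections (span 0.3) for exonic GC content and length, and leaving out each sample. Exonic length and GC content were computed on GRCh37 and were held for all 42 tested genes of the list. The scripts were tested on simulated data. Per-sample values are given for genes called, for those with an unadjusted p below 0.05 and for a set of main enzymes and regulators. Genes outside that rule were named with knowledge of their values. The genes and lists themselves were chosen with earlier results of these data known.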

Additional observations from a re-analysis of the deposited data

How the results depend on the processing

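With all samples kept, the 10 alternatives left HMOX1 and TXNRD2 called, and the values for single genes kept their direction and side of the criteria in 391 cases, changed sign in 25 and lost a call in 4. GPX1 lost its call under 4 of them, with log2 fold changes of 0.39 (GC correction), 0.40 (length correction), 0.38 (replicate block with GC correction) and 0.39 (replicate block with length correction). Adjusted p was below 0.05 for 1 gene of the list, TXNRD2, under the replicate block combined with the length correction, and for 0 otherwise. In that fit 188 of the 14473 genes tested (1.30%) had an adjusted p below 0.05. The median log2 fold change of the tested genes of the list was 0.07 as reported, 0.056 with DESeq2, 0.11 with library totals alone, 0.058 with all genes of at least 1 count, 0.092 with the GC correction, 0.027 with the length correction, 0.092 with block and GC correction together and 0.027 with block and length correction together. DESeq2 and the filter of at least 1 count also let GPX2 in, and over the same 42 genes their medians were 0.068 and 0.070.

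The labels do not say whether same-numbered samples were paired. The correlation of same-numbered deviations from the group means was -0.07, and with 2 samples per group it cannot settle that question. With the replicate block alone, 3 genes of the list were called and 7 had an unadjusted p below 0.05, beside 11.2% of all genes. Over all genes 717 were called in place of 669. KEAP1 and GSTK1 then had unadjusted p-values of 0.0536 and 0.0673 in edgeR.

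The sign changed for 11 genes of the list, at absolute values of at most 0.11. With library totals alone the log2 fold change was 0.0023 for GCLC, 0.020 for GPX4, 0.029 for GPX8 and 0.0045 for CAT. With the GC correction it was 0.0011 for GCLC, 0.012 for GCLM, 0.097 for GPX8, -0.072 for PRDX5, 0.016 for CAT, -0.0046 for TALDO1 and 0.052 for ME1. With the length correction it was -0.011 for NQO1, -0.0030 for GSR, -0.018 for MGST2 and -0.11 for PRDX5. Block and GC correction together gave 0.012 for GCLM, 0.097 for GPX8, -0.077 for PRDX5, 0.014 for CAT, -0.0052 for TALDO1 and 0.050 for ME1. Block and length correction together gave -0.015 for NQO1, -0.0019 for GSR, -0.020 for MGST2 and -0.11 for PRDX5. The cause was not tested.

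Leaving out each sample in turn, with the lone sample assumed to vary like the other group, gave 0 to 8 called genes of the list, 3 to 25 with an unadjusted p below 0.05, 0 to 22 with an adjusted p below 0.05, 1 to 13 called among the other pathway genes, and medians of 0.066 to 0.11 for the list and 0.025 to 0.18 for the other pathway genes. Over all genes the same fits called 345 to 1991, with 678 to 5995 at an unadjusted and 0 to 5011 at an adjusted p below 0.05. Without LY500307 replicate 1 or replicate 2, the fit took its spread from the Vehicle pair alone, so its counts of genes passing are not read as results. Over these fits the log2 fold change of 16 genes crossed 0, from -0.11 to 0.18 for NQO1, from -0.13 to 0.060 for GCLC, from -0.025 to 0.088 for GSR, from -0.15 to 0.11 for GPX4, from -0.022 to 0.0018 for GPX8, from -0.12 to 0.31 for GSTM2, from -0.11 to 0.032 for GSTM4, from -0.042 to 0.060 for MGST1, from -0.079 to 0.12 for MGST2, from -0.0054 to 0.12 for MGST3, from -0.22 to 0.12 for TXN2, from -0.042 to 0.11 for PRDX5, from -0.094 to 0.024 for CAT, from -0.28 to 0.046 for PGD, from -0.13 to 0.020 for TKT and from -0.67 to 0.24 for FTH1. Library totals moved the median of all genes by 0.04 and the share of higher calls among all called genes from 59.8% to 69.7%, and the length correction moved that share to 50.6%. At 41 to 86 reads for AIFM2 and 5 to 20 for DUOX2, depth limits what those genes can show.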
